A study of Rattus norvegicus with 6 samples.

Results

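Small leucine-rich proteoglycans (SLRPs) are described here by 8 genes, Dcn, Bgn, Aspn, Lum, Fmod, Prelp, Ogn and Podn, matched to array probes by gene symbol. Of these 8 genes 7 had a probe, 1 each, among 22517 probes, and Podn has no value here. The RNA came from subcutaneous uncoated cellulose implants in Sprague-Dawley rats aged 10 weeks, with 1 Illumina BeadChip per animal. Rats 4, 6 and 7 form the day 3 group, sampled at 72 hours, and rats 1, 2 and 3 form the day 1 group, sampled at 24 hours. Every animal carried an implant, and none was sampled on both days. The comparison of the days follows early granulation tissue, the vascular repair tissue that fills a wound or an implant. The tissue is a mixture of cells, in which fewer cells of a type and less RNA per cell cannot be told apart.

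SLRPs are secreted proteins with a short core of leucine-rich repeats. Most carry chondroitin, dermatan or keratan sulfate chains, and several bind collagen and set the width and spacing of its fibrils. Dermis and tendon are rich in them, and fibroblasts are their main source in connective tissue. Several members also bind growth factors of the TGF-beta family, and soluble biglycan and decorin are known ligands of Toll-like receptors on macrophages.

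All 7 measured SLRPs rose by day 3, by 0.43 to 3.30 on the log2 scale, with a median of 1.76. Aspn and Lum rose most, at 9.83-fold and 7.84-fold, and Dcn least, at 1.35-fold. The test was limma's moderated test over the 11650 probes kept above background, with Benjamini-Hochberg adjustment over all of them and a threshold of 0.05. By this rule 23.4% of the kept probes passed, 13.1% higher and 10.4% lower at day 3, and the median difference of the 8412 kept named genes was -0.0077. The 3 day 3 values lay above the 3 day 1 values for each of the 7 genes, a pattern that 22.4% of all kept probes showed, while 40.8% had days that did not overlap in either direction. With 3 rats per day a two-sided exact permutation test cannot go below p = 0.1, which each of the 7 reached. The labels name separate rats, so the spread is between animals. Levels of different probes cannot be set against each other, and only differences between days are compared between genes.

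**Figure D1:**
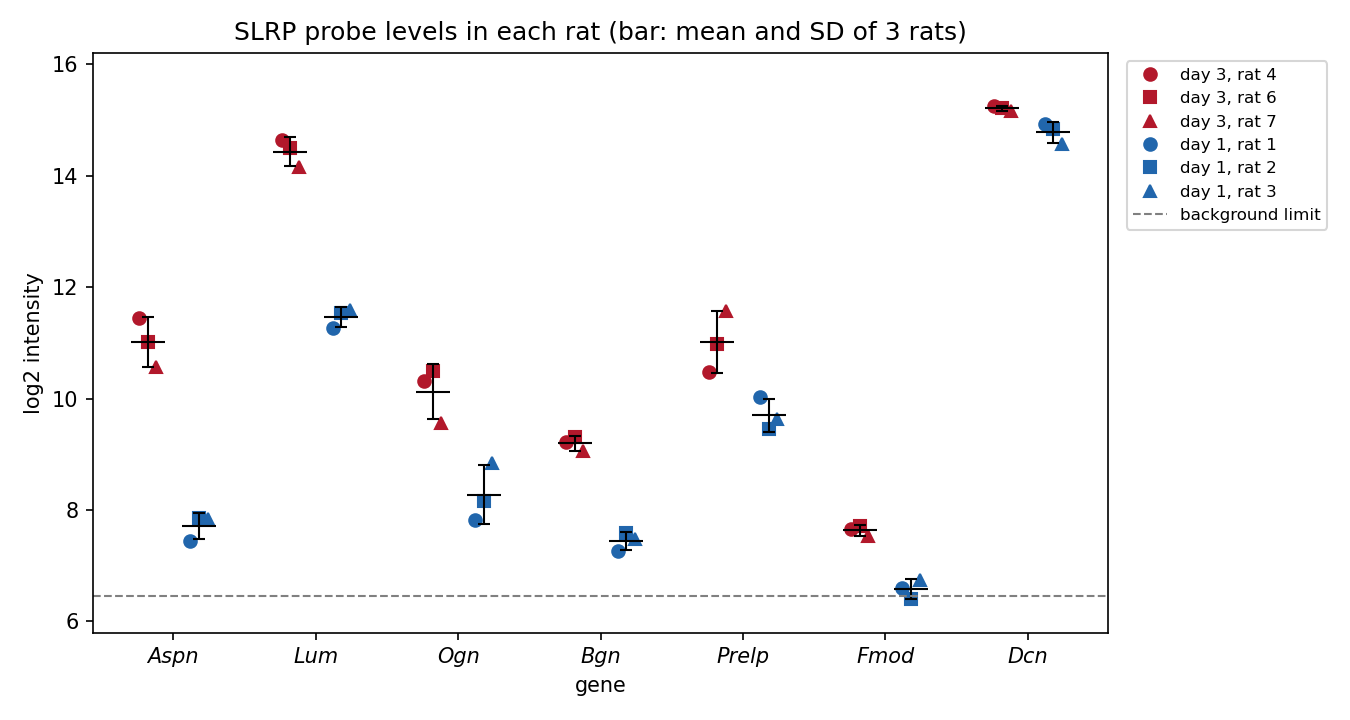
Log2 intensity of the 7 measured SLRP probes in each rat, day 3 in red on the left and day 1 in blue on the right of each gene, with the mean and SD of 3 rats and the background limit of 6.46 as a dashed line. Within every gene the 3 day 3 points lie above the 3 day 1 points, and only Fmod at day 1 lies next to the limit.

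Array-wide checks bear on how these values are read. The 18 fibroblast markers with a probe had 16 above background on each of the 6 arrays. On each array 8 of 9 endothelial markers and at least 6 of 7 macrophage markers were above it. Most markers of these 3 lists thus gave signal on both days, while Tcf21, Mmp2 and Cdh5 were above background on 0 arrays. Rat 3 stood apart in adipocyte markers, with a median level of 13.46 against 9.10 and 9.47 in the other day 1 rats. It also stood apart over all kept probes, with correlations of 0.955 and 0.962 with rats 1 and 2, against 0.991 between those. Skeletal muscle markers separated the rats in another way, with a median of 10.13 in rat 6 (day 3) and 10.36 and 10.17 in rats 2 and 3 (day 1), against 6.58 and 6.76 in rats 4 and 7 (day 3) and 6.62 in rat 1 (day 1). With muscle level (high or low) as a term in the fit, a setting chosen after seeing the data, 5 of the 7 SLRPs passed and Dcn (adjusted p = 0.105) and Prelp (adjusted p = 0.0567) did not. Leaving out rat 3, all 7 passed. Of the 11650 kept probes 3777 passed without rat 3 and 1718 with the muscle term, against 2729 in the main fit.

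Promoter sequences are shown because the 7 genes moved in 1 direction. Those printed are of Aspn and Lum, which rose most, and of Fmod, the gene among the 4 with an entry whose window held a GC box. The table of RefSeq promoters (build GRCr8, 250 bases before the start site to 50 after it) held 4 of the 7 measured genes, Aspn, Lum, Ogn and Fmod. Both strands were searched for a TATA box, spelled TATAAA, and for a GC box, spelled GGGCGG. The other motifs were the AP-1 site, spelled TGANTCA, and the SMAD element, spelled CAGAC. Capitals mark every match on either strand. The Aspn promoter lies at chr17:15310420-15310719 on the minus strand, that of Lum at chr7:34245456-34245755 on the plus strand and that of Fmod at chr13:48045317-48045616 on the plus strand.
Aspn: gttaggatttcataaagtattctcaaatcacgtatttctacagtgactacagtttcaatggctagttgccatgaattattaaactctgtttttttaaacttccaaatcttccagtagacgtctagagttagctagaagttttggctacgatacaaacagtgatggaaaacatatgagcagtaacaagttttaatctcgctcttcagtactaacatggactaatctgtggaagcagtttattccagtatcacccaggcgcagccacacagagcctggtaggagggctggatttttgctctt
Lum: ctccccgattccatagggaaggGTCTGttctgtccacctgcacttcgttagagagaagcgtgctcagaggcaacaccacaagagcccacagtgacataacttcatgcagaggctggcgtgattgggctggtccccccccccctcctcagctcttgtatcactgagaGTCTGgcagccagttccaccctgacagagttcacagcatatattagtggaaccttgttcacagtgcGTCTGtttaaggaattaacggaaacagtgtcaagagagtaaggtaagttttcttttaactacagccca
Fmod: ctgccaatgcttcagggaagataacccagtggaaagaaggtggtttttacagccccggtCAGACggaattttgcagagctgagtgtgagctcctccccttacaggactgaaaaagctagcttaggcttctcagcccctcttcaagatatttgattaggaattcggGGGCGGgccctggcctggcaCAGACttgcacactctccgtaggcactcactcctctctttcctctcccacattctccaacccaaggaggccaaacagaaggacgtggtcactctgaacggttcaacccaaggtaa
The Aspn window held 0 matches of the 4 motifs. The Lum window held 3 SMAD matches and the Fmod window 2, besides 1 GC box. Ogn, not printed, held 1 SMAD match and 2 TATA matches that overlap each other. No match of different motifs overlapped in these 4 windows. Over all 33469 promoters of this length 50.1% held a SMAD match, 33.1% a GC box, 14.2% a TATA box and 7.33% an AP-1 match. A match describes letters only, and no match says only that they are not in this window.

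Decorin, biglycan and asporin form the class closest to each other in sequence. Aspn encodes asporin, named for its run of aspartate residues, which binds collagen and TGF-beta. Its log2 intensity was 11.45, 11.02 and 10.56 in rats 4, 6 and 7 at day 3, against 7.44, 7.86 and 7.83 in rats 1, 2 and 3 at day 1. The days were separated by a gap of 2.70, far wider than the range within either day. The difference was 3.30 (SE 0.24, 9.83-fold, adjusted p = 0.000776), the rise ranking 8 among the 8412 kept named genes.

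Bgn encodes biglycan, a carrier of chondroitin or dermatan sulfate chains that binds collagen. Its level was 9.23, 9.32 and 9.05 at day 3 in rats 4, 6 and 7, against 7.26, 7.58 and 7.48 at day 1 in rats 1, 2 and 3. The rats of each day lay close together, within 0.26 at day 3 and 0.32 at day 1. Bgn rose by 1.76 (SE 0.13, 3.39-fold, adjusted p = 0.000776).

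Dcn encodes decorin, which wraps collagen fibrils and limits their width. Its level was 15.25, 15.22 and 15.16 at day 3 in rats 4, 6 and 7, against 14.92, 14.84 and 14.56 at day 1 in rats 1, 2 and 3. These values lay 0.22 to 0.31 (day 3) and 0.55 to 0.91 (day 1) under 15.47, the highest value of any probe, so the probe was close to the top of the scale already at day 1, and the part of this in the small difference was not tested. Dcn rose by 0.43 (SE 0.12, 1.35-fold, adjusted p = 0.0432). It passed in 1 of 6 refits that left out 1 rat each, where rat 3 was omitted (0.33, adjusted p = 0.0454). Omitting rat 4, 6 or 7 of day 3 gave adjusted p = 0.116, 0.132 and 0.098, and omitting rat 1 or 2 of day 1 gave 0.054 and 0.0943. Its adjusted p is the largest of the 7.

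Lumican, fibromodulin and PRELP belong to the class that carries keratan sulfate or, in PRELP, a basic heparin-binding end. Lum encodes lumican, which spaces collagen fibrils in cornea and dermis. Its level was 14.64, 14.50 and 14.15 at day 3 in rats 4, 6 and 7, against 11.26, 11.53 and 11.59 at day 1 in rats 1, 2 and 3. All 3 day 3 rats stood at least 2.56 above the highest day 1 rat. Lum rose by 2.97 (SE 0.16, 7.84-fold, adjusted p = 0.000373), the smallest adjusted p of the 7, at rank 14 among named genes.

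Fmod encodes fibromodulin, which binds type I collagen and is abundant in tendon. Its level was 7.66, 7.71 and 7.53 at day 3 in rats 4, 6 and 7, against 6.60, 6.40 and 6.75 at day 1 in rats 1, 2 and 3. Rat 2 lay under the background limit of 6.46 and the other day 1 rats just above it, so the probe was near background at day 1. Fmod rose by 1.05 (SE 0.12, 2.07-fold, adjusted p = 0.00292). The size moved with the background correction, to 1.42 with a normexp offset of 16 in place of 50 and 0.94 with no correction.

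Prelp encodes PRELP, which can anchor basement membranes to collagen. Its level was 10.48, 10.98 and 11.58 at day 3 in rats 4, 6 and 7, against 10.03, 9.45 and 9.63 at day 1 in rats 1, 2 and 3. The lowest day 3 rat stood only 0.45 above the highest day 1 rat, while the day 3 rats differed among themselves by 1.09. Prelp rose by 1.31 (SE 0.29, 2.48-fold, adjusted p = 0.0216). The adjusted p was 0.0716 without rat 6 and 0.0818 without rat 2.

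Ogn encodes osteoglycin, also called mimecan, which takes part in collagen fibril formation. Its level was 10.31, 10.49 and 9.57 at day 3 in rats 4, 6 and 7, against 7.81, 8.16 and 8.85 at day 1 in rats 1, 2 and 3. The highest day 1 value was that of rat 3, the rat with the high adipocyte markers, and the part of those cells in it was not tested. Ogn rose by 1.85 (SE 0.33, 3.60-fold, adjusted p = 0.0108), and by 2.14 (adjusted p = 0.00168) without rat 3. The rise was smallest without rat 1, at 1.62 (adjusted p = 0.0310). The adjusted p came close to the threshold without rat 6 (0.0451) and without rat 2 (0.0495).

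**Figure D2:**
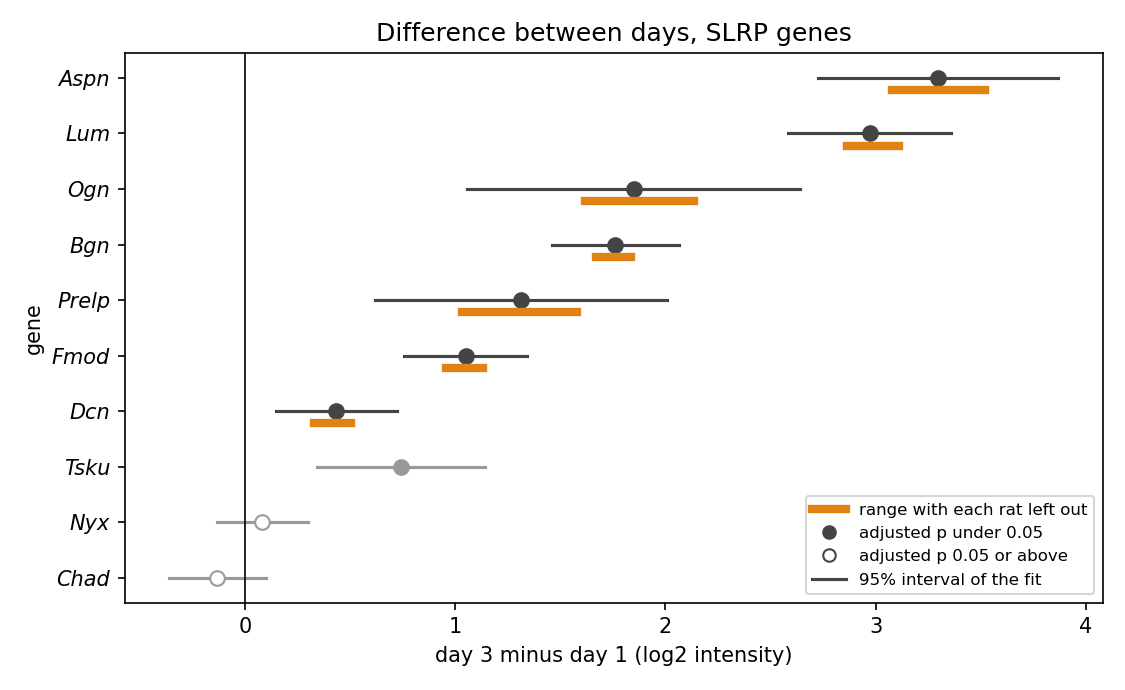
Day 3 minus day 1 on the log2 scale for the 7 measured SLRPs and, in grey, for 3 further family members above background, with 95% intervals of the limma fit. Filled points passed the test, open points did not, and orange bars give the range when each rat was left out, which stays above 0 for the 7 SLRPs.

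The size of the rise was compared between genes. It was larger by 1.45 (SE 0.29) for Aspn than for Ogn. Against Dcn the measured rise was larger by 2.86 (SE 0.32) for Aspn and by 2.54 (SE 0.23) for Lum, but the Dcn probe lay near the top of the scale, and the part of this in these gaps was not tested. The rises of Aspn and Lum were 0.33 apart (SE 0.12), and those of Ogn and Bgn 0.09 (SE 0.34). Each of the 21 pairs was compared through the difference of its 2 genes within every array, with an exact two-sided permutation test adjusted over the 21. The exact test gave p = 0.1, the smallest it allows, for 16 pairs, with an adjusted p = 0.131, so no pair could pass. The exact test gave adjusted p = 0.247 to 1 for the other 5, which were Ogn against Bgn, Prelp or Fmod, and Prelp against Bgn or Fmod. The pairs share genes and arrays and are not independent.

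Spread between rats of the same day differed among the genes. At day 3 the SD was 0.55 for Prelp, 0.49 for Ogn and 0.44 for Aspn, above that of 98.1%, 97.4% and 96.7% of kept probes, whose median SD was 0.13. Dcn had an SD of 0.04 at day 3, above that of 9.14% of kept probes. At day 1 the largest SD was that of Ogn, 0.53, against a median of 0.17 over kept probes, and those of the other 6 ran from 0.16 to 0.30. Rat 7 had the lowest day 3 value in 6 of the 7 genes and the highest in Prelp. Relative to the mean of rats 4 and 6, rat 7 was lower by 0.83 in Ogn, 0.67 in Aspn and 0.43 in Lum, and higher by 0.85 in Prelp. Rat 3 had the highest day 1 value in Lum, Fmod and Ogn and the lowest in Dcn, and for these genes its distance from the mean of rats 1 and 2 was 0.19, 0.25, 0.86 and -0.32.

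**Figure D3:**
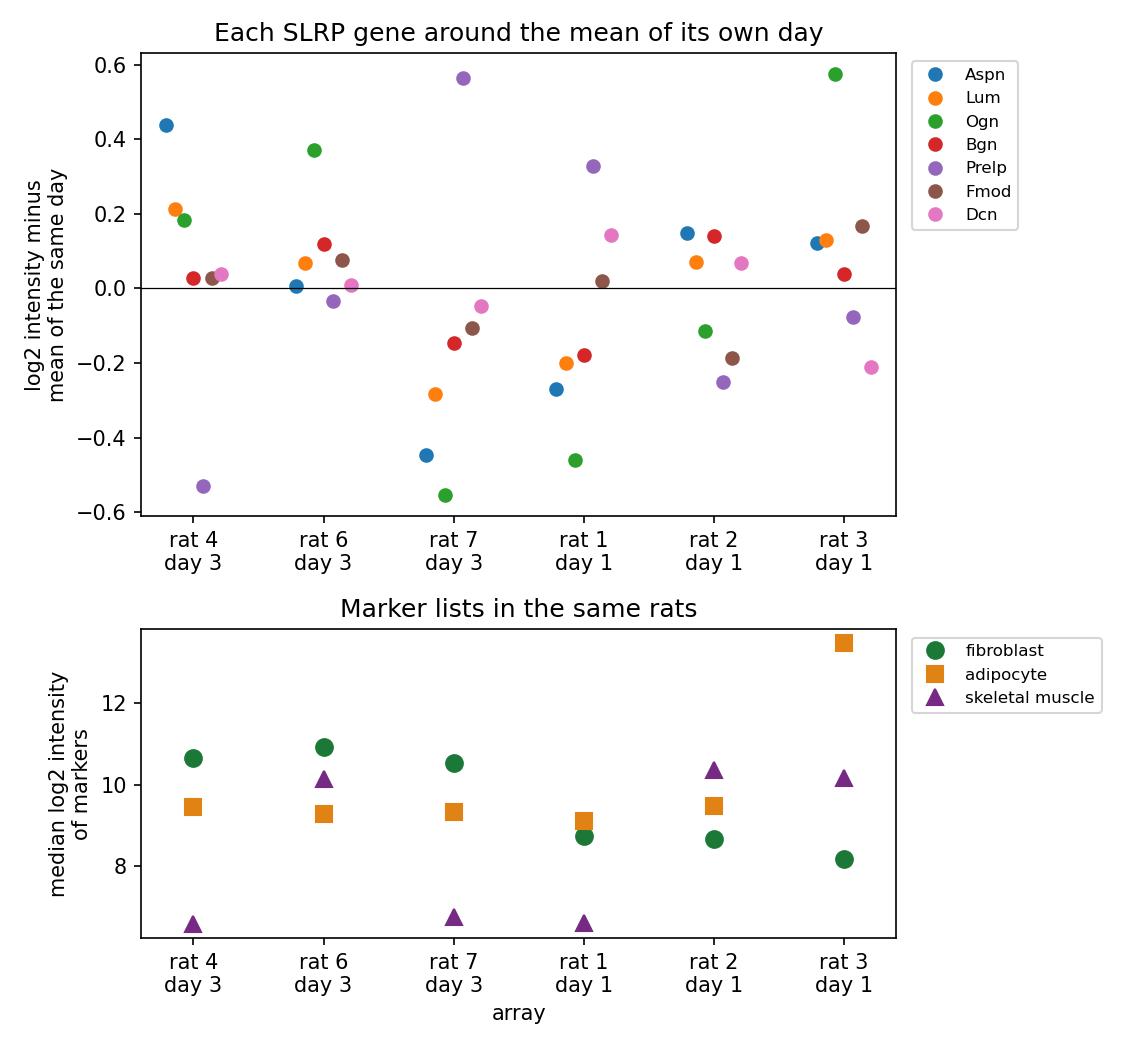
Upper panel, log2 intensity of each SLRP gene minus its mean over the 3 rats of the same day; lower panel, median log2 intensity of fibroblast, adipocyte and skeletal muscle markers on the same arrays, with the day 3 rats on the left. Among the day 3 rats Prelp, in purple, is highest in rat 7, where Aspn, Lum and Ogn are lowest, adipocyte markers are high in rat 3 and muscle markers in rats 6, 2 and 3.

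The kept genes outside the family whose 6 values, centred on their own mean, lay nearest to each SLRP were looked up as a description, with the root mean square distance on the log2 scale over the 6 arrays. Aspn and Lum shared Col3a1 and Col5a2, chains of the fibrillar collagens III and V. Col5a2 lay 0.11 from Lum and 0.28 from Aspn, and Col3a1 0.16 from Lum and 0.20 from Aspn. The third gene was Pdgfrl for Lum (0.19) and Lrrc17 for Aspn (0.32). Aspn and Lum were 0.21 apart. Nearest to Bgn was Dpt (0.14), which encodes dermatopontin, a collagen and decorin binding matrix protein, followed by Dact3 (0.15) and Cacna2d1 (0.16). Prelp lay nearest to Sox18 (0.16), a transcription factor of endothelial cells, Lmnb2 (0.16) and Hrob (0.17). Ogn lay nearest to Tceal9 (0.20), Itm2a (0.23) and Nupr1 (0.25), Fmod to Rad52 (0.054), Tbx15 (0.059) and Armcx2 (0.077), and Dcn to Jak2 (0.030), Ctnna1 (0.032) and Polr3e (0.032). The distance includes the difference between the days, so near genes had a change of like size. It does not measure likeness among rats of the same day alone. Genes that vary little have small distances to many others, so distances are not compared between SLRPs.

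Several SLRP genes stand side by side in the genome. In the RefSeq annotation of GRCr8, Dcn is followed by Lum, Kera and Epyc, Ogn by Omd and Aspn, and Optc by Prelp and Fmod, with no other protein-coding gene between. The neighbours Lum and Dcn differed by 2.97 and 0.43 between the days, Aspn and Ogn by 3.30 and 1.85, and Prelp and Fmod by 1.31 and 1.05. Kera, Epyc and Optc, genes of cornea, cartilage and eye, were above background on 0 of 6 arrays. Omd, which encodes osteomodulin of bone, was above it on 1 of 3 day 3 arrays and 0 of 3 day 1 arrays and was not tested. On the other side of Dcn lies Btg1, an antiproliferative gene, which fell by 0.89 (SE 0.14, adjusted p = 0.00787). Chi3l1, a chitinase-like gene and the third gene after Fmod, fell by 2.29 (SE 0.14, adjusted p = 0.000525), and Chit1 beside it gave 0.34 (SE 0.12, adjusted p = 0.0915).

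Beyond these, 7 of 10 further family members had a probe and 3 were kept. Tsku, which encodes the secreted signalling modulator tsukushi, was at 7.30, 7.23 and 7.66 in rats 4, 6 and 7 at day 3, against 6.89, 6.64 and 6.43 in rats 1, 2 and 3 at day 1. It was above background in 2 of 3 day 1 rats and rose by 0.74 (SE 0.17, adjusted p = 0.0227), with adjusted p = 0.0773 without rat 2. It also failed when rat 6 or rat 7 was omitted. Nyx, known from retina, and Chad, known from cartilage, did not pass, with 0.08 (95% interval -0.14 to 0.30) and -0.13 (-0.36 to 0.10). Chad was above background on 0 day 3 arrays and 3 day 1 arrays, and both probes lay close to the limit.

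Collagens and other matrix proteins that SLRPs bind had 14 of 22 genes kept, of which 10 rose, 0 fell and 4 did not pass, with a median of 2.01. Over all 8412 kept named genes 13.9% rose and 11.1% fell by the same test, and the counts of each list stand beside these shares. Col1a1, a chain of type I collagen, was at 14.57, 14.76 and 14.51 at day 3 in rats 4, 6 and 7, against 10.84, 10.49 and 9.90 at day 1 in rats 1, 2 and 3, a rise of 4.20 (SE 0.24, adjusted p = 0.000424). Col5a1, of type V collagen, rose by 3.93 (SE 0.27) and Col3a1, of type III collagen, by 3.24 (SE 0.14). Fn1, which encodes fibronectin and was named after its values were seen, gave -0.10 (SE 0.12, adjusted p = 0.630).

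Enzymes that build and sulfate glycosaminoglycan chains had 24 of 36 genes kept, of which 10 rose, 1 fell and 13 did not pass, with a median of 0.23. Chpf and Chpf2, which extend chondroitin chains, rose by 1.37 (SE 0.18) and 1.12 (SE 0.18). Csgalnact1, which starts chondroitin on the linker sugar, rose by 1.16 (SE 0.09, adjusted p = 0.0011). Chst12, which sulfates chondroitin and dermatan, fell by 0.46 (SE 0.13, adjusted p = 0.043) but passed in only 1 of 6 refits with 1 rat omitted, with an adjusted p of up to 0.132. Dse, the epimerase that makes dermatan sulfate and was named after its values were seen, gave 0.04 (SE 0.19). The numbers that rose and fell were 6 and 0 when rat 6 or rat 7 was omitted and with the muscle term. They were 7 and 0 on omitting rat 2, 9 and 0 on omitting rat 4 or rat 1, and 10 and 2 on omitting rat 3.

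Proteins that process or cleave SLRPs had 15 of 19 genes kept, of which 3 rose, 3 fell and 9 did not pass, with a median of 0.37. The shares of all kept named genes were 13.9% and 11.1%. Bmp1, the proteinase that removes the propeptide of biglycan and of procollagens, rose by 0.61 (SE 0.12, adjusted p = 0.0138, 0.0553 without rat 2). Pcolce, its enhancer on procollagen and not itself a protease, rose by 3.20 (SE 0.12), and the serine protease Htra1 by 0.75 (SE 0.21, adjusted p = 0.0444), which passed in 2 of 6 refits, with an adjusted p of up to 0.147. The neutrophil collagenase Mmp8, the neutrophil elastase gene Elane and the gelatinase Mmp9 fell, with differences of -2.56 (SE 0.28), -1.865 (SE 0.33) and -1.32 (SE 0.33, adjusted p = 0.0319). Mmp9 passed in only 1 of 6 refits, with an adjusted p of up to 0.0997. These 3 also stand in the list of neutrophil markers, of which 9 of 10 kept fell, with summed intensities of 5460.7 to 10216.8 at day 3 and 23022.7 to 49797.7 at day 1, and Ltf and Ngp above background on 0 arrays. The part of neutrophil number in these protease values was not tested. On omitting rat 2, 1 rose and 2 fell with a median of 0.23, and with the muscle term 2 rose and 2 fell.

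Growth factors and receptors that bind SLRPs had 20 of 28 genes kept, of which 1 rose, 3 fell and 16 did not pass, with a median of 0.05. Among all kept named genes 13.9% rose and 11.1% fell, so these counts do not set the list apart. Tlr2, a Toll-like receptor that soluble biglycan can engage, was at 13.00, 12.70 and 12.45 at day 3 in rats 4, 6 and 7, against 14.21, 14.03 and 13.86 at day 1 in rats 1, 2 and 3, and fell by 1.31 (SE 0.17, adjusted p = 0.00368). Its co-receptor Cd14 fell by 1.97 (SE 0.25, adjusted p = 0.00384), and Ifnar1, an interferon receptor chain, by 0.37 (SE 0.11, adjusted p = 0.0461). Ifnar1 passed in only 1 of 6 refits, with an adjusted p of up to 0.138. The 1 rise was that of Chrd, which encodes the BMP antagonist chordin, at 0.93 (SE 0.25, adjusted p = 0.0389). Its probe was above background in 3 of 3 day 3 rats and 1 of 3 day 1 rats. Chrd was kept through its day 3 values, so its call is not read. It passed in 2 of 6 refits, with an adjusted p of up to 0.126. The TGF-beta genes, named after their values were seen, did not pass, with -0.55 (SE 0.20, adjusted p = 0.0991) for Tgfb1, 0.30 (SE 0.25, adjusted p = 0.462) for Tgfb2 and 0.42 (SE 0.13, adjusted p = 0.0639) for Tgfb3. The numbers that rose and fell were 0 and 2 on omitting any of rats 1, 2, 6 and 7, and 4 and 7 on omitting rat 3. With the muscle term they were 0 and 3. They were also 0 and 3 with no filter on dim probes, and 0 and 2 with the 99th percentile limit on all 6 arrays. The median has no settled sign, at -0.022 on omitting rat 7, -0.045 on omitting rat 3, -0.022 with the muscle term, -0.055 with array weights and 0.093 on omitting rat 6.

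Proteoglycans outside the family had 15 of 24 genes kept, of which 4 rose, 4 fell and 7 did not pass, with a median of 0.17. For all kept named genes the shares were 13.9% and 11.1%. The cell-surface syndecan Sdc2 rose by 1.47 (SE 0.13), the glypican Gpc4 by 1.43 (SE 0.35) and the basement membrane proteoglycan Agrn by 1.11 (SE 0.23). Gpc4 passed in only 1 of 6 refits and Agrn in 4, with adjusted p of up to 0.0993 and 0.0668. Srgn, serglycin of leukocyte granules, fell by 1.72 (SE 0.19), Prg4, lubricin, by 1.17 (SE 0.12), and Vcan, the large chondroitin sulfate proteoglycan versican of provisional matrix, by 0.88 (SE 0.18). Vcan passed in 2 of 6 refits, with an adjusted p of up to 0.0617. On omitting rat 4 or rat 1 the numbers that rose and fell were 3 and 2. Omitting rat 6 gave 2 and 3, and omitting rat 7 gave 2 and 2. The median was 0.075, 0.097 and 0.098 on omitting rat 2, rat 4 and rat 6, 0.26 on omitting rat 7, and 0.019 with no filter on dim probes.

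**Figure D4:**
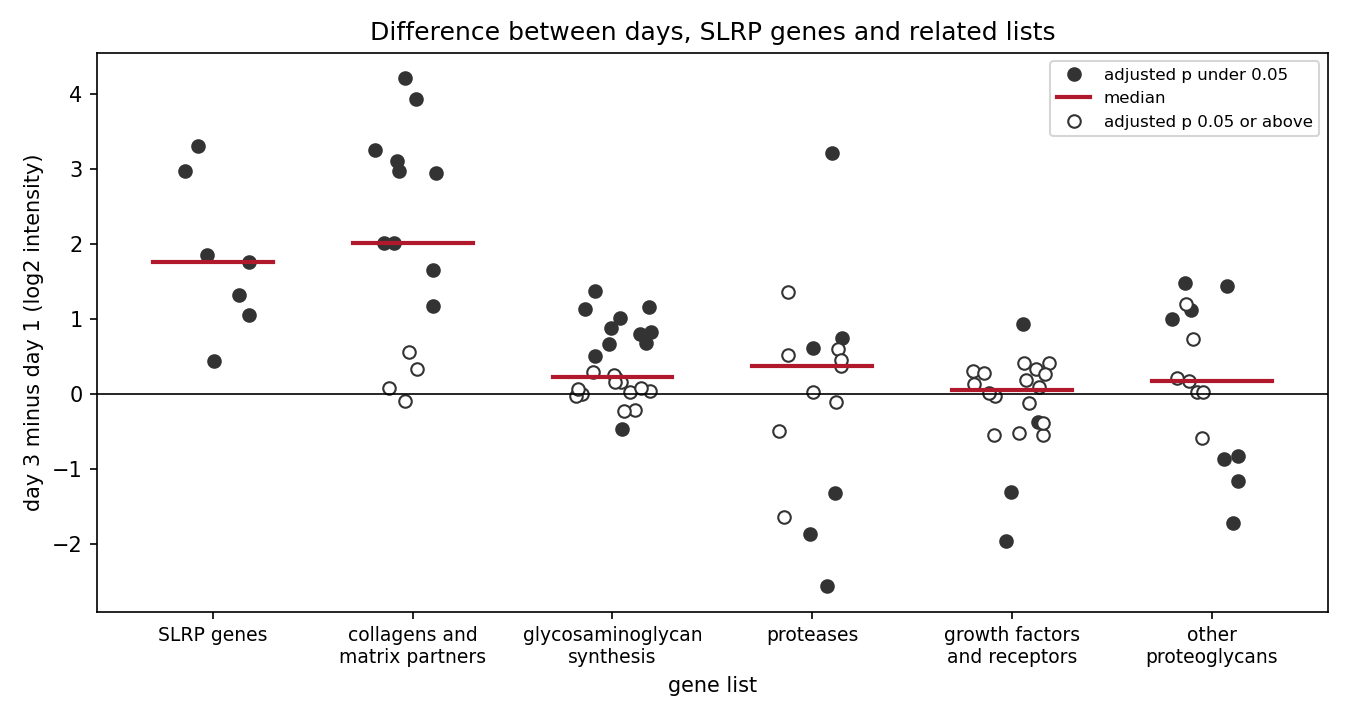
Day 3 minus day 1 on the log2 scale for each kept gene of the SLRPs and 5 related lists, with filled points past the test, open points short of it and the list median as a red line. The medians are 1.76 for the SLRPs, 2.01 for collagens and matrix partners, and 0.05 to 0.37 for the other 4 lists. Each of these 4 holds genes past the test on both sides of 0, where the SLRPs and the collagens and matrix partners have 0 such genes below it. Among growth factors and receptors the only such gene above 0 is Chrd, kept through its day 3 values, so its call is not read. The median of growth factors and receptors changes sign when rat 3 or rat 7 is omitted.

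Markers of several cell types moved in the same direction as the SLRPs, and their part in the SLRP values was not tested. The summed intensity of the 7 SLRP probes was 60892.0 to 70915.9 at day 3 and 29138.4 to 35213.7 at day 1. Most of this sum is Dcn and Lum, so it does not describe the other SLRPs. The sums of marker lists likewise weigh bright probes most, and the part of a probe in a sum is not an amount of transcript. In rat 4 (day 3) Dcn held 38905.9 and Lum 25634.5 of 70915.9. In rat 1 (day 1) Dcn held 30976.4 and Lum 2465.7 of 35213.7. Of 16 kept fibroblast markers 11 rose and 0 fell (11 and 2 without rat 3), with summed intensities of 57700.9 to 66611.9 at day 3 and 27553.5 to 44617.2 at day 1, while Tcf21 and Mmp2 were above background on 0 arrays. Endothelial markers had 6 of 8 that rose (3 on omitting rat 6 or rat 2), with sums of 14410.6 to 18838.5 at day 3 and 7150.7 to 8901.7 at day 1, and Cdh5 above background on 0 arrays. Smooth muscle and pericyte markers had 5 of 6 that rose (2 on omitting rat 6 or rat 2, 3 on omitting rat 7 and with the muscle term), with sums of 7348.8 to 10721.1 at day 3 and 4065.4 to 5046.7 at day 1, and Cnn1 above background on 0 arrays. Macrophage markers had 4 that rose and 1 that fell of 7, and their sums overlapped, at 17960.5 to 29173.7 at day 3 and 18339.3 to 25333.2 at day 1. Of 2 kept mesothelial markers 1 rose, Msln (mesothelin), with a difference of 3.29 (SE 0.48), and both rose on omitting rat 3. Keratinocyte markers had 3 of the 6 measured above background on each day 3 array and 0 or 1 on each day 1 array, with Krt14, Krt15 and Krt1 above it on 0 arrays. The other 3 were kept through their day 3 values, so their calls are not read, and with values below background set at the limit 1 of them passed. Mast cell markers fell in 7 of 8 (4 on omitting rat 7 or rat 2), with Kit and Mcpt1 above background on 0 arrays. Each day 1 array had 8 above background, against 8, 5 and 6 in rats 4, 6 and 7 at day 3. Those under it at day 3 were kept through their day 1 values, so their calls are not read. With the 99th percentile limit on all 6 arrays 4 mast cell markers were kept and 3 fell. Of 12 adipocyte markers 0 rose and 1 fell (3 and 1 on omitting rat 3). The levels of skeletal muscle markers are those given above for each rat. The housekeeping genes Actb and Gapdh gave -0.05 (SE 0.10) and -0.06 (SE 0.14).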

How the data were processed

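The values are the authors' deposited intensities on the linear scale, for which the submitters' processing notes name limma. All 6 arrays share their quantiles, with a median of 104 and a highest value of 45354. A second deposited table, with 12 columns whose names match no sample label, was not used, so the background limit was estimated from the values (the 95th percentile of a normal curve fitted on the log2 scale to the values below their mode, an intensity of 103). Probes above it on at least 3 of 6 arrays were kept. The intensities were corrected by normexp (offset 50), quantile normalised, put on the log2 scale and fitted with limma 3.58.1 (R 4.3.3) with 1 coefficient for day, unpaired, and the pipeline was tested on simulated data. Symbols came from the platform annotation, updated by gene ID for 13747 of 13787 named probes. The number of arrays limits precision.

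The genes and lists were chosen with earlier results of these data known. Named genes are the SLRPs, other family members, up to 3 per list and direction with the largest difference past the test (or the 2 brightest where none passed), the 3 nearest genes of each SLRP, chromosomal neighbours, Actb, Gapdh, Col1a1 and Col3a1. Alternatives covered background correction, normalisation, filter, variance model, array weights, moderation and each rat left out.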

Additional observations from a re-analysis of the deposited data

How the results depend on the processing

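No SLRP changed direction under any alternative run, which were 9 settings of the processing, 6 refits with 1 rat left out and the muscle term, which was chosen after seeing the data. The number that passed was 4 without moderation, 5 to 7 with 1 rat left out, and 5 to 7 otherwise. Dcn lost its call with offset 16 (0.43, adjusted p = 0.064), cyclic loess (0.29, adjusted p = 0.0883), no moderation (0.43, adjusted p = 0.0876) and the muscle term (0.40, adjusted p = 0.105), and ran from 0.33 to 0.51 with 1 rat left out. Prelp lost it without moderation (1.31, adjusted p = 0.0986) and with the muscle term (1.22, adjusted p = 0.0567), and ran from 1.03 to 1.58. Ogn lost it without moderation (1.85, adjusted p = 0.0692). Of all kept probes 2729 passed, against 4101 with array weights, 1123 without moderation, 1718 with the muscle term and 1304 to 3777 with 1 rat left out (1304 without rat 2, 1339 without rat 6 and 1462 without rat 7). Without moderation the numbers that rose and fell were 3 and 0 for glycosaminoglycan enzymes, 2 and 1 for proteases and 0 and 2 for growth factors and receptors. They were 2 and 2 for other proteoglycans, 7 and 0 for collagens and matrix partners, and 0 and 0 for further family members. For markers they were 9 and 0 (fibroblast), 2 and 0 (endothelial), 1 and 0 (smooth muscle and pericyte) and 1 and 1 (macrophage). Neutrophil markers gave 0 and 4 and mast cell markers 0 and 2. Array weights gave 4 and 7 for growth factors and receptors. The causes were not tested. Fmod has no value with the 99th percentile limit on all 6 arrays, since it lay under that limit on some, and Podn has no probe and so no value. No paired analysis was possible because the rats of the 2 days carry different numbers. Signal over background limits Fmod, Tsku and Chrd, and the top of the scale limits Dcn. The size of other rises moved less with background correction. From no correction to offset 16 it went from 1.68 to 1.99 for Bgn, 3.21 to 3.53 for Aspn and 1.80 to 1.98 for Ogn.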
